A study of Mus musculus with 4 samples.

Results

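Among cultured mouse muscle stem cells that had begun to differentiate, a minority carried abundant messenger RNA for Car3, carbonic anhydrase 3. These Car3-high Mylpf-high cells were defined as cells with a deposited log2(CPM + 1) of at least 8 for Car3 and at least 9 for Mylpf, the fast regulatory myosin light chain that marks differentiated muscle cells, whatever their level of Ckm. CPM are the molecules (UMIs) of a gene as counts per 1e6 UMIs of the cell, so the minima correspond to 255 and 511 CPM. The definition was met by 798 of the 5910 cells that passed the filters: 254 in young soft, 299 in young stiff, 84 in aged soft and 161 in aged stiff. They are set against the Car3-low Mylpf-high cells, with the same Mylpf minimum and Car3 below 8, of which there were 444, 479, 883 and 1216. Values below are given in the order young soft, young stiff, aged soft, aged stiff unless stated.

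The cells were muscle stem cells from skeletal muscle of wild-type C57BL/6 mice, young or aged, kept for 7 days in medium with 10% fetal bovine serum on polydimethylsiloxane, an elastic silicone, of 12 kPa (soft) or 29 kPa (stiff), and released with trypsin. The study asked what substrate stiffness does to muscle stem cells of aged mice, with RNA decay as one candidate process. Each combination of age and stiffness was 1 droplet library of 3' transcript ends. The ages in months, the number of animals and any pooling are not given in the sources used here. No difference between libraries has a replicate check, so no test or p-value is given. A share or level carries counting error only.

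Carbonic anhydrases interconvert carbon dioxide and bicarbonate. Carbonic anhydrase 3 is a cytosolic form with low catalytic activity that is abundant in adult slow, oxidative skeletal muscle fibres, in fat and in liver, and it can be glutathionylated on cysteines and has been linked to protection from oxidation. In differentiation, myoblasts leave the cell cycle, express Myog and then the fusion proteins Mymk and Mymx, and switch on sarcomere genes. Slow fibres are told from fast ones by paired isoforms of myosin, troponin and calcium pump.

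The cells were commoner in the young libraries. They made up 18.7% (exact binomial 95% interval 16.6 to 20.9) of all cells in young soft, 20.2% (18.2 to 22.4) in young stiff, 6.30% (5.06 to 7.74) in aged soft and 9.26% (7.94 to 10.7) in aged stiff. Mylpf-high cells as a whole went the other way, at 51.3%, 52.6%, 72.5% and 79.2% of cells. Among Mylpf-high cells the Car3-high share was therefore 36.4% (32.8 to 40.1) and 38.4% (35.0 to 42.0) in the young libraries and 8.69% (6.99 to 10.6) and 11.7% (10.0 to 13.5) in the aged ones. The intervals of the young libraries lay above those of the aged ones in both denominators. The intervals on soft and on stiff overlapped within each age, except that over all cells the upper bound of aged soft, 7.74%, lay just under the lower bound of aged stiff, 7.94%.

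**Figure D1:**
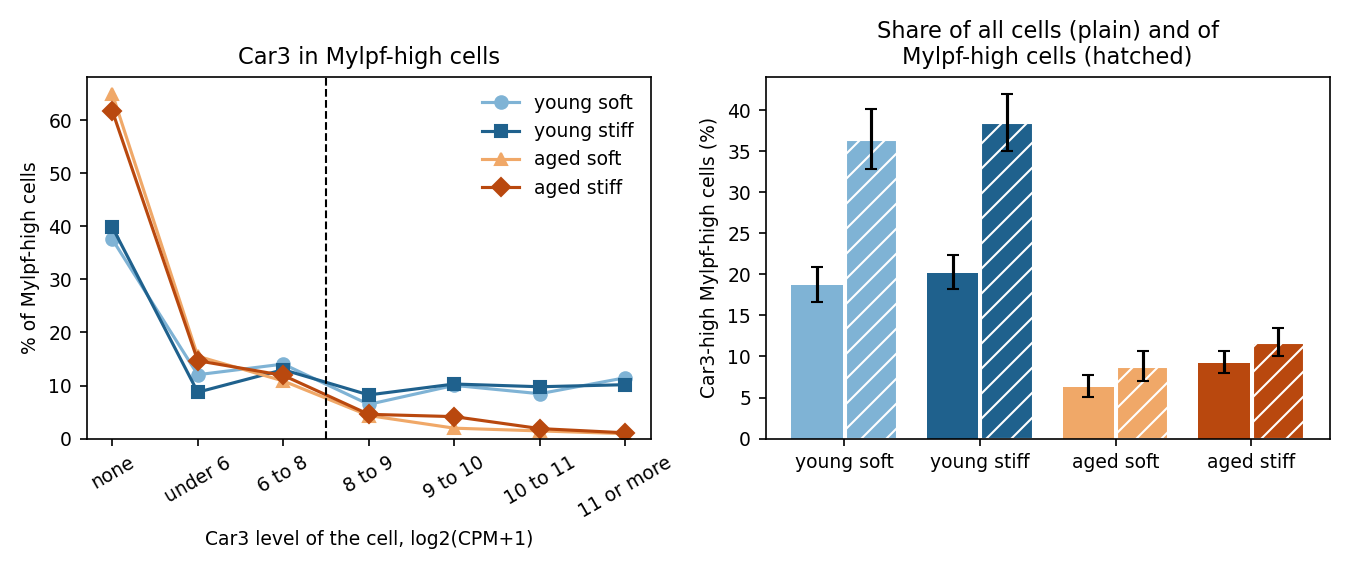
Left, percentage of the Mylpf-high cells of each library in bins of Car3 level, in log2(CPM+1), where the dashed line is the minimum of 8 that defines Car3-high cells and "none" means no Car3 UMI. Right, Car3-high Mylpf-high cells as a percentage of all cells (plain bars) and of Mylpf-high cells (hatched bars) with exact binomial 95% intervals: 18.7% to 20.2% of all cells in the young libraries and 6.30% to 9.26% in the aged ones.

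Car3 itself, which chose the cells, averaged 1978, 1671, 1015 and 905 CPM in them and 37.6, 34.0, 23 and 23.3 CPM in the Car3-low cells. The median Car3-high cell held 49, 36, 22.5 and 25 Car3 UMIs and the lowest 5 or 6 in each library. Of the Car3-low cells, 59.0%, 64.7%, 71.1% and 69.9% had no Car3 UMI. The level was continuous across the minimum: 109 members lay between 8 and 8.5, while 119 Mylpf-high cells lay just outside, between 7.5 and 8. A further 50 cells reached the Car3 minimum with Mylpf below 9. These 50 cells were 25, 17, 4 and 4 by library, beside 254, 299, 84 and 161 members. Only 4 members had Mylpf between 9 and 9.5, so few lay just inside the Mylpf minimum. Within the definition the aged cells sat lower, with a median Car3 of 8.99 and 9.36 on the log2 scale against 10.2 and 10.1 in the young. The members between 8 and 8.5 were 22 of 254, 28 of 299, 27 of 84 and 32 of 161. Comparisons by age inside the definition therefore also compare cells of unlike Car3 level, and age and Car3 level were not separated.

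After each cell was thinned to 2000 UMIs, at least 1 Car3 UMI was seen in 85.4%, 81.9%, 64.3% and 73.9% of the Car3-high cells. The same share was 7.21%, 7.52%, 3.74% and 3.78% in the Car3-low cells and 5.74%, 3.0%, 2.46% and 2.49% in cells with Mylpf below 9. Of these Mylpf-low cells, 25, 17, 4 and 4 met the Car3 minimum. How much of the share came from free RNA was not tested. Before thinning, the median cell held 40805, 31749, 37421 and 38111 UMIs among Car3-high cells, 39842, 32360, 37058 and 39992.5 among Car3-low cells and 30537.5, 23991, 22688.5 and 24149 among Mylpf-low cells. Depth was thus close between Car3-high and Car3-low cells of a library. Library totals ran from 44004676 to 68244908 UMIs. Cells with under 1% mitochondrial counts were 8, 5, 20 and 14 of the Car3-high cells, which is 3.15%, 1.67%, 23.8% and 8.70%, against 2.03%, 1.04%, 7.02% and 7.48% of the Car3-low cells. The aged soft values therefore rest on 84 cells, of which 20 had almost no mitochondrial counts; without such cells the aged soft share was 5.12% of all cells and 7.23% of Mylpf-high cells. Counts of genes without them are given beside the results.

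The name "slow-like" was not borne out by its markers. Of the slow markers Myl2, Myh7, Sln and Nrap, which were listed for these cells beside Car3, only Nrap was higher than in Car3-low cells in all 4 libraries, and none reached 1.5-fold in all 4. Nrap, a scaffold protein of assembling myofibrils that is not specific to slow fibres, averaged 332, 356, 152 and 189 CPM against 206, 230, 113 and 133. Its log2 ratios, of mean CPM plus 5, were 0.68, 0.62, 0.41 and 0.49.

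Myl2, the slow and ventricular regulatory light chain, averaged 147, 138, 28.7 and 14.1 CPM against 70.3, 78.2, 19.6 and 21.2. It was higher in the young Car3-high cells, by log2 ratios of 1.02 and 0.78, and lower in aged stiff, at -0.46. Single cells weighed on it: 1 cell held 21.1% of the young soft level and 41.0% of the aged soft level. Thinned to 2000 UMIs, 9.84%, 11%, 3.57% and 1.24% of Car3-high cells had a Myl2 UMI, against 4.50%, 5.43%, 1.93% and 2.55% of Car3-low cells, so that most Car3-high cells showed none at that depth.

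Myh7, the slow myosin heavy chain, averaged 381, 323, 74.6 and 121 CPM against 296, 255, 86.2 and 102, with log2 ratios of 0.36, 0.34, -0.20 and 0.23. Sln, sarcolipin, which regulates the calcium pump, averaged 241, 298, 103 and 95.1 CPM against 272, 255, 86.7 and 106, and lay above in some libraries and below in others. In both genes the young and aged libraries stood farther apart than the Car3-high and Car3-low cells of any library. For these reasons the cells are called here by their definition.

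They also carried other genes of differentiated muscle cells, which is in part built in, since the Mylpf minimum chose such cells. Ckm, a further marker, was lower than in Car3-low cells and is given below, as is Myh3. Acta1, skeletal alpha-actin, averaged 14271, 14700, 14562 and 15948 CPM and Myl1, the fast essential light chain, 16798, 17817, 19599 and 22176 CPM. Pax7, the stem cell factor, was at 5.35, 3.64, 4.39 and 4.77 CPM, and its thinned share was at most 1.57% of cells against at least 21.6% of Mylpf-low cells.

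Markers of most other cell types were low. Summed over the list, the 10 fibro-adipogenic progenitor markers came to 1.17 to 4.52 CPM in the 4 libraries against 1.35 to 2.56 CPM in Car3-low cells, and 8 of the 10 were in the tables used. The 9 endothelial markers, of which 5 were in the tables, summed to 0.448 to 2.81 CPM, with Cdh5 and Emcn at 0. The 11 immune markers, of which 10 were in the tables, summed to 3.53 to 22.2 CPM against 4.4 to 17.2 CPM, with Ptprc at 0. The 7 Schwann cell markers, 6 of them in the tables, summed to 4.06 to 10.3 CPM.

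Car3 is also a fat cell gene. The adipocyte list of 12 held 7 genes in the tables and summed to 189 to 318 CPM against 134 to 263 CPM in Car3-low cells, led by Acsl1, Scd1 and Pparg, which muscle cells also express. Fabp4, the fat cell lipid-binding protein, was at 0.283, 0.157, 0.70 and 0.957 CPM; Adipoq, Plin1, Cidec, Cfd and Lep were not analysed here. Tenocyte markers summed to 304 to 438 CPM against 215 to 386 CPM, led by Scx, with Tnmd at 0. The smooth muscle list, of which 7 of 8 genes were in the tables, summed to 876 to 1164 CPM against 1421 to 2182 CPM, led by Acta2, an actin that early muscle cells also make. Undifferentiated progenitor markers, 12 of 13 in the tables, summed to 465 to 507 CPM against 386 to 411 CPM, led by Itga7, Sdc4 and Hes1.

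Car3-high and Car3-low Mylpf-high cells were otherwise similar. Of 5376 genes with a mean of at least 20 CPM in either set of cells, 18 (0.335%), Car3 among them, were at least 1.5 times higher in the Car3-high cells in every library, and 24 (0.446%) at least 1.5 times lower in every library. The median over all measured genes was -0.03 on the log2 scale. Because the cells were chosen by a gene within this contrast, the differences describe the cells and are not tested.

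The 12 named genes with the largest median ratios were led by Fhl1 and held sarcomere, sarcoplasmic reticulum and mitochondrial genes. Fhl1, a LIM-domain protein of the sarcomere abundant in oxidative fibres, averaged 668, 687, 804 and 761 CPM in Car3-high cells and 297, 336, 387 and 395 CPM in Car3-low cells, a median log2 ratio of 1.03. The sets of library values did not overlap. In summed UMIs the ratio was 2.19 (95% counting interval 2.11 to 2.27) in young soft and 1.91 (1.85 to 1.97) in aged stiff.

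Casq1, the calcium store of the fast-fibre sarcoplasmic reticulum, averaged 715, 841, 1222 and 1256 CPM against 301, 412, 683 and 774 CPM, a median log2 ratio of 0.93. Its ratio was higher in the young libraries, at 1.23 and 1.02, than in the aged ones, at 0.83 and 0.70. Aged Car3-high cells also held less Car3. Igfn1, a sarcomeric immunoglobulin and fibronectin domain protein, averaged 695, 735, 721 and 814 CPM against 319, 333, 427 and 455 CPM, a median of 0.97.

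Ankrd23, a muscle ankyrin repeat protein that binds titin, averaged 269, 254, 408 and 350 CPM against 115, 121, 236 and 221 CPM, a median of 0.91. Its relative Ankrd1, of the same stretch-linked family, averaged 1938, 2232, 3154 and 3180 CPM against 1256, 1483, 2223 and 2198 CPM, a median of 0.56, and passed 1.5-fold in the young libraries only. Hspb7, a small heat shock protein of heart and skeletal muscle, averaged 260, 328, 446 and 439 CPM against 127, 170, 248 and 270 CPM, a median of 0.88.

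Cox7a1 and Cox8b, muscle-type subunits of cytochrome c oxidase, the last enzyme of the respiratory chain, were among the leaders. Cox7a1, the heart and muscle form of subunit 7a, averaged 141, 130, 165 and 168 CPM against 53.1, 61.2, 98.9 and 107 CPM, a median of 0.87. Cox8b, the muscle form of subunit 8, averaged 695, 777, 921 and 895 CPM against 390, 430, 519 and 548 CPM, a median of 0.82. Cox6a2, the muscle form of subunit 6a, stood at 1131, 1258, 1164 and 1514 CPM against 683, 779, 1092 and 1209 CPM and was past 1.5-fold in the young libraries alone. The remaining leaders were Camk2b, a calcium-dependent kinase, at a median of 0.85, Rcan2, a regulator of calcineurin, at 0.82, and Lrtm1, at 0.87. Cystm1 and Acsl5, a fatty acyl-CoA ligase, each at 0.81, fell short of 1.5-fold in aged soft. Beyond the 12, Smyd2, Fbxo40, Kif1c, Ndrg4 and Lyrm9 also passed 1.5-fold in every library, with medians from 0.63 to 0.73, as did the gene models 2900079G21Rik and Gm14216.

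**Figure D2:**
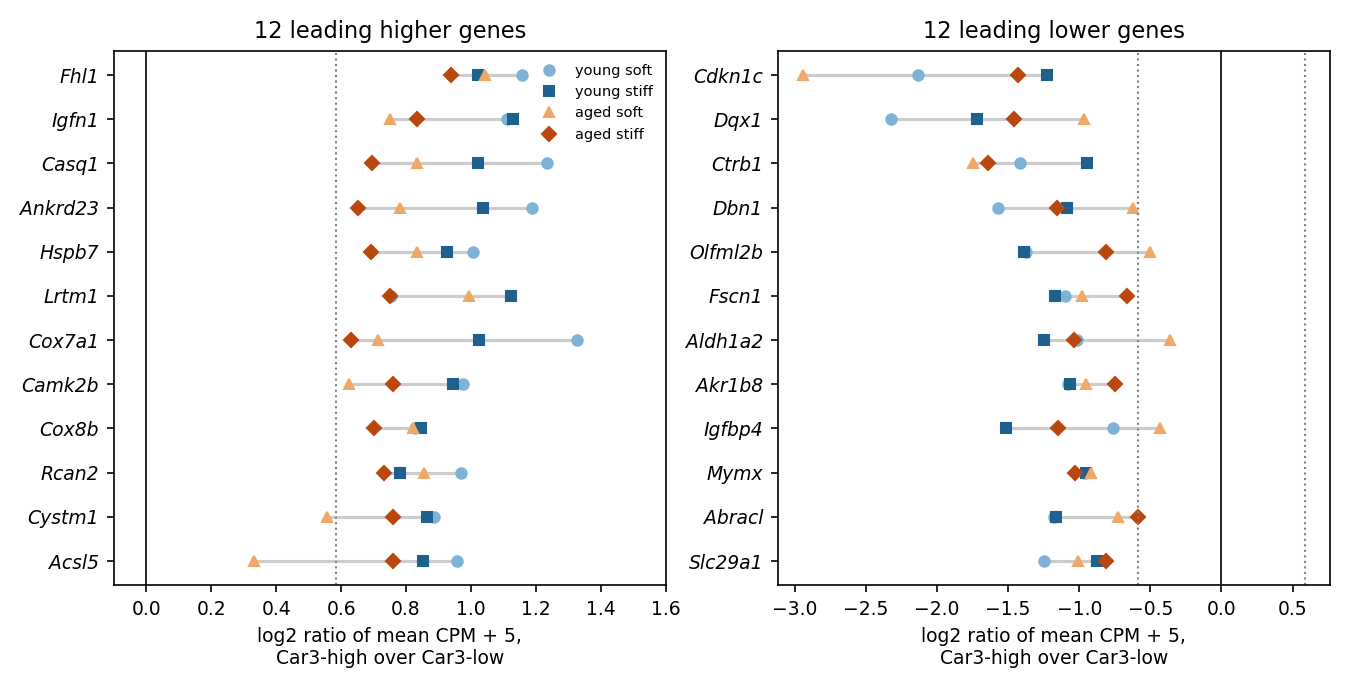
Log2 ratio of mean CPM plus 5, Car3-high over Car3-low Mylpf-high cells, in each of the 4 libraries (symbols) for the 12 leading higher and 12 leading lower named genes; grey bars span the libraries and dotted lines mark 1.5-fold. All points of a gene lie on the same side of 0, Fhl1 leads the higher genes with a median of 1.03, and Cdkn1c the lower ones with -1.78.

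The start regions of the leading higher and leading lower genes were read for short motifs. Of the 24 leading genes, 20 had an entry among the RefSeq start regions used here (build GRCm38.p6). The 250 bases before each start were searched on both strands. The motifs were the E-box CAGCTG, which MyoD and myogenin can bind, TATAAA, and the MEF2 consensus site. The half-site TNAAGGTCA of oestrogen-related receptors, which act on mitochondrial genes, was also searched. CAGCTG was held by 4 of 15 starts of the higher genes, by 4 of 17 starts of the lower genes and by 13.0% of all 32851 starts. By gene this is 4 of 11 against 2 of 9, since Slc29a1 alone has 8 starts. The 13.0% is a share of starts and was not counted by gene, so the gene counts are not set against it. TATAAA was held by 1 and 3 of them and by 12.4% of all. No start of either set held the half-site or the MEF2 site, which 1.14% and 0.508% of all starts held. The E-box of Rcan2 lies before 1 of its 3 starts; the higher genes with a single start and an E-box were Igfn1 and Casq1, both on the minus strand of chromosome 1 at chr1:136006343-136006592 and chr1:172219896-172220145, and Cox8b, on the minus strand at chr7:140900447-140900696. Their 250 bases are shown 5′ to 3′ and end at the base before the start, with CAGCTG in capitals.
Igfn1: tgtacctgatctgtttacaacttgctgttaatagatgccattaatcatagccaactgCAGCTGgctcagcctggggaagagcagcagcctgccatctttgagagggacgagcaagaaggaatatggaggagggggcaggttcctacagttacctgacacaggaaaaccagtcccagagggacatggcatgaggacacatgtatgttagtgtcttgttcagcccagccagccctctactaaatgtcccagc
Casq1: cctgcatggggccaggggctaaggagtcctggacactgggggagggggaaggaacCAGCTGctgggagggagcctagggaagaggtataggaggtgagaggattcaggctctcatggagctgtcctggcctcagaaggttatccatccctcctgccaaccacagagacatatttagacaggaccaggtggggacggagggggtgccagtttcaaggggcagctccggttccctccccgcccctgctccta
Cox8b: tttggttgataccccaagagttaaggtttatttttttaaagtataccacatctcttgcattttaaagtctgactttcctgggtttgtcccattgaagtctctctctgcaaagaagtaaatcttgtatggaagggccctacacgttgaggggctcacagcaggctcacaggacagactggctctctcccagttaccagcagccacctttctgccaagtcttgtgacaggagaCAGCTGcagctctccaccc
The E-box of Cox8b lay close to the listed start and those of Igfn1 and Casq1 farther upstream. The start of Cox8b was found near the beginning of a transcript in the GENCODE annotation. Those of Igfn1 and Casq1 were not, so their windows are less certain. A match describes the letters of this window only, and binding was not measured.

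Lower in the Car3-high cells were a cell cycle inhibitor of early commitment, a fusion gene and genes of the non-muscle cytoskeleton. Cdkn1c, the inhibitor p57 that goes up as myoblasts leave the cycle, averaged 48.8, 67.6, 19.4 and 59.4 CPM in Car3-high cells against 231, 165, 182 and 169 CPM in Car3-low cells, a median log2 ratio of -1.78. Few cells carried what was left: 1 cell held 40.2%, 20.8%, 58.8% and 77.4% of the Car3-high level, and without the top cell of each set the median was -2.90. Thinned to 2000 UMIs, 4.72%, 5.35%, 2.38% and 2.48% of Car3-high cells had a Cdkn1c UMI against 13.7%, 12.1%, 9.40% and 9.05% of Car3-low cells.

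Mymx, the membrane micropeptide that completes myoblast fusion, averaged 61.4, 63.0, 106 and 90.1 CPM against 124, 126, 204 and 189 CPM, a median of -0.95. The ratio of summed UMIs ran from 0.488 (0.448 to 0.531) in young soft to 0.542 (0.488 to 0.601) in aged soft. Mymk, its partner, differed less, at 1579, 1776, 1762 and 1806 CPM against 1890, 2083, 2138 and 2205 CPM, a median of -0.27. Myog, the transcription factor of early differentiation, averaged 1921, 2012, 1704 and 1476 CPM against 2909, 2854, 2365 and 2093 CPM, a median of -0.50, and Myod1 had a median of -0.42. All 3 were lower in every library without reaching 1.5-fold in all 4.

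The cytoplasmic actins, which give way to sarcomeric actin in differentiation, were past 1.5-fold lower throughout. Actb averaged 299, 323, 200 and 201 CPM against 705, 650, 321 and 360 CPM, and Actg1 141, 150, 92.1 and 120 CPM against 342, 302, 175 and 186 CPM. The actin binders Dbn1, drebrin, and Fscn1, fascin, had medians of -1.12 and -1.04. The brain-type creatine kinase Ckb averaged 174, 187, 240 and 261 CPM against 369, 342, 489 and 480 CPM. The other leading lower genes were Dqx1 at -1.59, Ctrb1 at -1.53, Olfml2b at -1.09, the retinoic acid enzyme Aldh1a2 at -1.03, the aldo-keto reductase Akr1b8 at -1.01, Igfbp4 at -0.96, Abracl at -0.95 and the nucleoside transporter Slc29a1 at -0.94. Dqx1 in aged soft came almost wholly from 1 cell, with 97.5% of the level. Under the alternative settings the median of Fscn1 rose as far as -0.07, that of Aldh1a2 -0.08 and that of Abracl -0.36. The other leading lower genes stayed at -0.55 or below.

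The Car3-low set reached farther down in Mylpf, with a 5th percentile of 9.72, 9.86, 11 and 10.9 against 12.2, 12.4, 12.3 and 12.5 on the log2 scale. Weighted to the Mylpf distribution of the Car3-high cells, 8 genes in place of 18 were past 1.5-fold higher in all libraries and 16 in place of 24 lower. The medians then stood at 0.91 for Fhl1, 0.84 for Casq1, 0.79 for Cox7a1, -1.01 for Mymx, -0.44 for Myog and -1.53 for Cdkn1c. Leaving out cells with under 1% mitochondrial counts gave 23 higher and 21 lower genes. Without the single cell with most of a gene, 13 and 41 were past 1.5-fold, and without the aged soft library, so over the other 3 libraries, 29 and 45.

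Car3-high cells were not the cells richest in Ckm, the muscle creatine kinase of late differentiation. Ckm averaged 68.4, 84.2, 139 and 163 CPM against 104, 104, 197 and 230 CPM, a median log2 ratio of -0.49. A Ckm level of at least 8 was met by 7.09%, 8.36%, 10.7% and 16.1% of the Car3-high cells, 78 cells in all, and by 14.6%, 10.4%, 26.6% and 30.02% of the Car3-low cells. Seen from the other side, Car3-high cells were 21.7%, 33.3%, 3.69% and 6.65% of the cells with that much Ckm.

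Most contractile genes of slow and of fast fibres had ratios above 0, but few reached 1.5-fold. Of the 20 genes of the slow fibre and cardiac list, 16 were measured, 15 had a median ratio above 0 with a list median of 0.27, 7 were higher in all libraries, and Fhl1 alone was past 1.5-fold in all. Of the 16 genes of the fast fibre list, 11 were measured beside Mylpf, 10 were above 0 with a list median of 0.32, 8 were higher in all libraries, and Casq1 alone was past 1.5-fold in all. Over all measured genes 2428 of 5376 were above 0, 1499 were higher in all libraries and 1753 lower in all. The slow list's median by library was 0.40, 0.28, 0.10 and 0.16, and that of the fast list 0.45, 0.34, 0.27 and 0.12; under the alternative settings both overall medians went as low as 0.17.

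Within the slow list, Mb, myoglobin, the oxygen store of oxidative fibres, averaged 7420, 8456, 7403 and 9111 CPM against 4114, 4782, 5311 and 5608 CPM, a median of 0.76, and missed 1.5-fold in aged soft. Tpm3, slow tropomyosin, averaged 687, 752, 1186 and 1379 CPM against 372, 435, 931 and 1019 CPM, past 1.5-fold in the young libraries and at log2 ratios of 0.35 and 0.43 in the aged. The slow troponins differed little: Tnnt1 had a median of 0.33, Tnnc1 0.19 and Tnni1 0.18. Atp2a2, the slow-fibre and cardiac calcium pump, was at 0.27. Actc1, cardiac alpha-actin, which is made early in skeletal muscle differentiation, was the one slow-list gene lower in all libraries, at 2137, 2329, 1135 and 1693 CPM against 3130, 3260, 2056 and 2143 CPM.

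Fast genes differed by similar amounts, with medians of 0.46 for Myl1, 0.34 for the Z-disc actinin Actn3, 0.33 for the troponin Tnni2, 0.32 for the calcium pump Atp2a1 and 0.25 for both Tnnt3 and Tpm1. Myh2, a fast oxidative myosin, showed ratios of 2.54, 0.78, 3.73 and -0.52, but 1 cell held 80.9% of its level in aged soft and 39.0% in aged stiff, so they are not read. The developmental myosin Myh3 was at 2755, 2558, 2104 and 2716 CPM against 2420, 2699, 2622 and 3006 CPM, and its list of 10 had a median of -0.08.

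**Figure D3:**
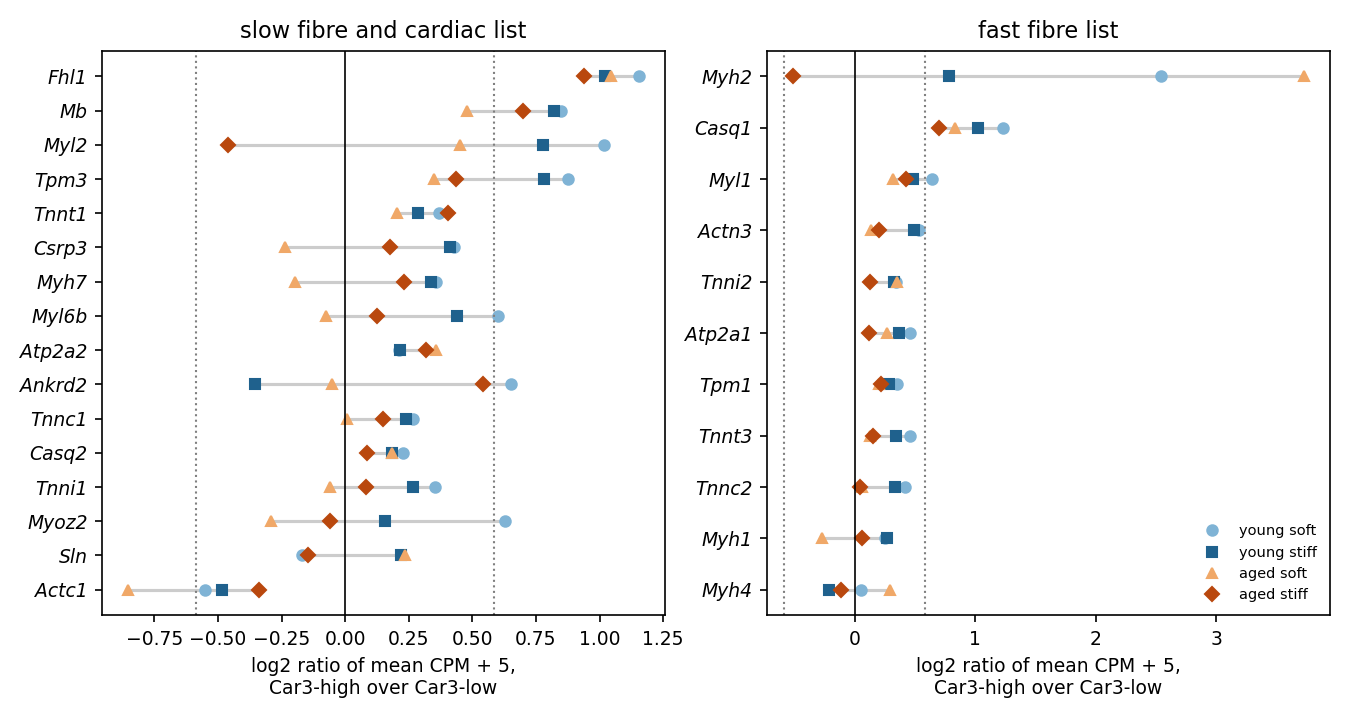
Log2 ratio of mean CPM plus 5, Car3-high over Car3-low Mylpf-high cells, for the measured genes of the slow fibre and cardiac list (left) and of the fast fibre list (right), 1 symbol per library; dotted lines mark 1.5-fold. Fhl1 and Casq1 are past the line in all 4 libraries, while Myl2, Myh7 and Sln fall on both sides of 0.

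The other lists were described the same way. Z-disc and scaffold genes had 29 of 38 above 0 with a median of 0.19 and 25 higher in all libraries, beside 1499 of 5376 over all genes, with Hspb7 alone past 1.5-fold. Sarcoplasmic reticulum and triad genes had 14 of 18 above 0 (median 0.14), and creatine kinase, glycogen and glycolysis genes 17 of 23 (median 0.19). Nuclear genes of oxidative phosphorylation had 30 of 42 above 0 with a median of 0.09, Cox7a1 and Cox8b being past 1.5-fold. Fatty acid genes, with 8 of 16 above 0, citrate cycle genes, with 12 of 22 and a median of 0.01, and mitochondrially encoded genes, with 8 of 12 and a median of 0.04, lay close to the median of all genes, -0.03.

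Single genes of these lists were higher in all libraries without reaching 1.5-fold in all. Xirp2, a binder of actin and actinin at the Z-disc, averaged 373, 335, 215 and 305 CPM against 174, 203, 154 and 174 CPM, and Myot, myotilin of the Z-disc, 75.8, 64.2, 35.4 and 43.3 CPM against 34.8, 35.1, 23 and 25.1 CPM. Both missed 1.5-fold in aged soft alone. Fabp3, the fatty acid carrier of heart and oxidative muscle, averaged 900, 877, 578 and 635 CPM against 510, 602, 465 and 471 CPM. Pfkm, the muscle phosphofructokinase, averaged 315, 318, 361 and 409 CPM against 185, 204, 290 and 294 CPM, whereas Eno1, the non-muscle enolase, was lower, at 269, 231, 212 and 251 CPM against 402, 345, 311 and 357 CPM. Pdk4, which turns pyruvate away from oxidation, had a median of 0.58, Fxyd1, a regulator of the sodium pump, 0.54, and Map1lc3a, an autophagosome protein, 0.48.

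Among lists with a median below 0, fusion and adhesion genes had 10 of 15 lower, a median of -0.30 and 8 lower in all libraries, beside 1753 of 5376 over all genes. Myogenic factors had 18 of 23 lower (median -0.17), heat shock and unfolded protein genes 17 of 22 (-0.16) and immediate early genes 7 of 8 (-0.25). Matrix genes had 5 of 7 lower (-0.37), cell cycle genes 5 of 6 (-0.28) and interferon genes 5 of 5 (-0.20). Over all genes 2948 of 5376 were lower. In the order of these 6 lists, 10, 9, 5, 4, 3 and 2 members were lower in all libraries. The aged soft medians were -0.01 for matrix, 0.05 for cell cycle and 0.07 for interferon genes. The fusion list held the tetraspanin Cd9 at 43.0, 29.99, 81.3 and 58.4 CPM against 83.8, 65.8, 119 and 99.9 CPM and the adhesion protein Jam3 at a median of -0.74. The stress hormone Gdf15 had a median of -0.70, the chaperone Hsp90aa1 -0.50 and the early factors Klf4 and Jund -0.58 and -0.51.

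The stretch, YAP and SRF list split evenly, 8 above and 8 below 0, with Ankrd23 past 1.5-fold higher and Actb, Actg1 and Myl9 past it lower. Antioxidant genes had 12 of 26 above 0 and a median of -0.05. Gpx3, a secreted glutathione peroxidase, led them at 409, 490, 1496 and 1335 CPM against 232, 266, 1092 and 1142 CPM, with log2 ratios of 0.81, 0.87, 0.45 and 0.22. Autophagy genes had 8 of 15 above 0 (median 0.12) and p53 genes 4 of 10 (-0.13).

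Other genes of acid and bicarbonate handling went both ways. Of the 17 genes of that list 7 were measured beside Car3, with 4 above 0, 3 higher and 2 lower in all libraries, and none past 1.5-fold in all. Slc4a3, an anion exchanger of muscle and heart, averaged 139, 163, 154 and 158 CPM against 83.7, 95.2, 111 and 113 CPM, a median of 0.58 and higher in every library. Car13, another cytosolic carbonic anhydrase, was at 26.3, 16.4, 19.9 and 18.7 CPM against 13.5, 14.5, 12.1 and 13.3 CPM. Car2, a cytosolic form of high activity, stood at 22.0, 19.3, 43.7 and 24.4 CPM against 43.4, 36.4, 35.7 and 32.3 CPM, lower in 3 libraries and higher in aged soft.

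The genes described above were also followed over bins of Car3. Most of them were chosen for their difference across the Car3 minimum, so a course along Car3 is in part built in and is given as a description. In young soft Fhl1 averaged 269 CPM in Mylpf-high cells with no Car3 UMI, 331 in those under 6 on the log2 scale, 344 from 6 to 8, 451 from 8 to 9, 570 from 9 to 10, 632 from 10 to 11 and 903 at 11 or more. In aged stiff Fhl1 went in the same bins from 358 through 392, 593, 668, 702 and 970 to 1015 CPM, the last from 15 cells. Casq1 went from 243 to 806 CPM in young soft and from 342 to 934 CPM in young stiff between the end bins. Mb went from 3725 to 8030 and from 4311 to 9082 CPM. These gene levels share cells and depth with the Car3 values that define the bins, and Car3 at low levels is itself uncertain.

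In the opposite direction, Myog went from 3043 CPM in cells without Car3 to 1620 CPM in the top bin of young soft and from 3071 to 1765 CPM in young stiff. Mymx went from 143 to 26.8 CPM in young soft and from 142 to 60.4 CPM in young stiff. In the aged libraries the bins over 9 on soft held 19, 14 and 9 cells and the top bin on stiff 15, so their end points are uncertain; between no Car3 and 8 to 9, Mymx went from 225 to 107 CPM on soft and from 206 to 116 CPM on stiff. Myh7 followed no such course in any library.

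**Figure D4:**
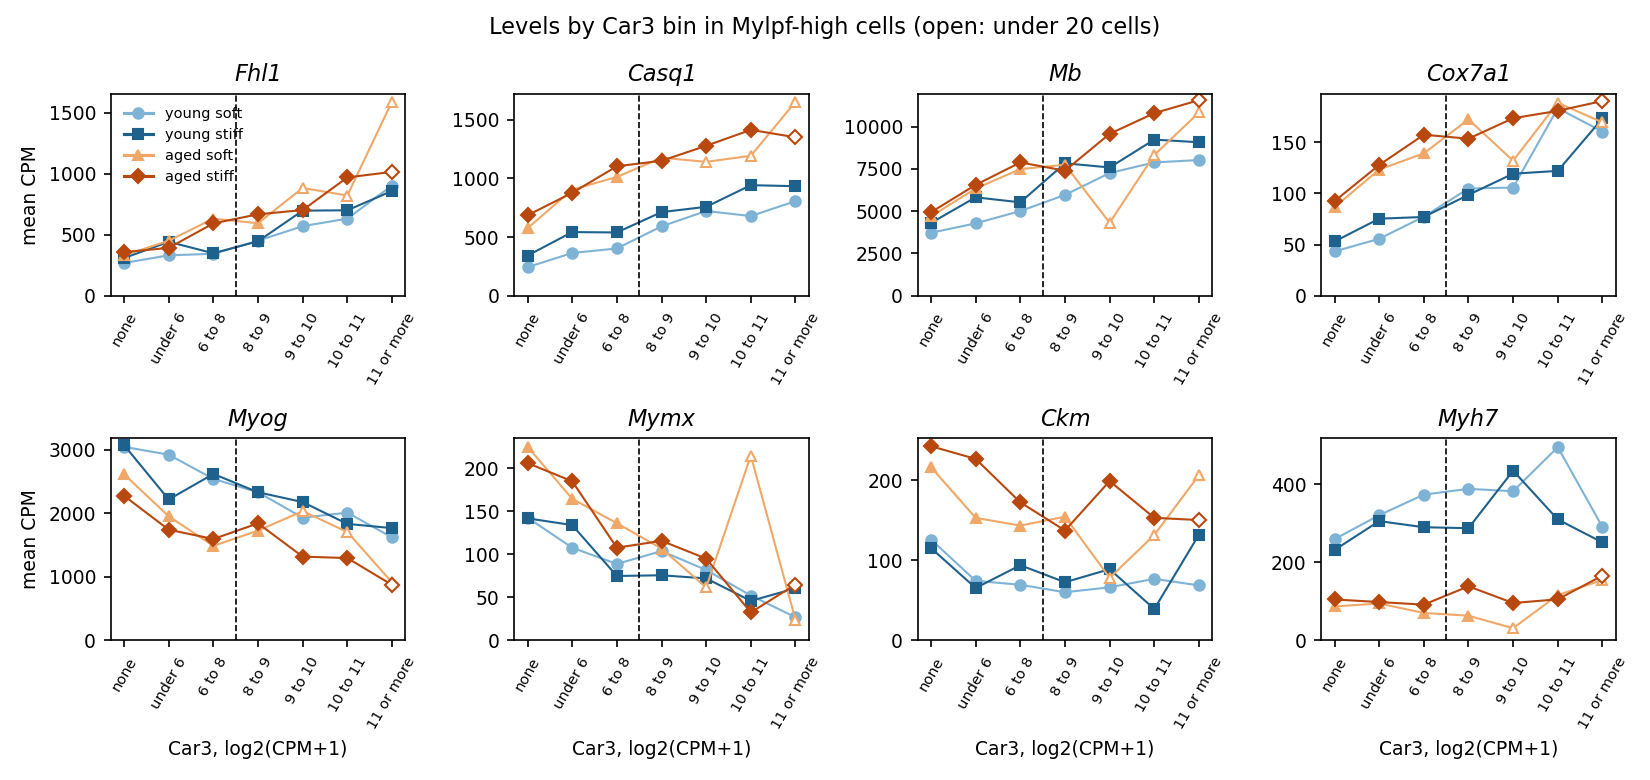
Mean CPM of 8 genes in Mylpf-high cells binned by Car3 level in log2(CPM+1), 1 line per library; the dashed line marks the minimum of 8 and open symbols stand for bins under 20 cells. Fhl1, Casq1, Mb and Cox7a1 are higher and Myog and Mymx lower in the bins with more Car3 (Fhl1 in young soft from 269 to 903 CPM), while Ckm and Myh7 show no steady course.

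Between the libraries, Car3-high cells differed more by age than by stiffness. On stiff against soft, 3 of 5343 measured genes (0.0561%) were at least 1.5 times higher and 15 (0.281%) lower in young cells, and 20 of 5305 (0.377%) higher and 43 (0.811%) lower in aged cells. In aged against young cells, 241 of 5511 genes (4.37%) were higher and 294 (5.33%) lower on soft, and 149 of 5363 (2.78%) higher and 214 (3.99%) lower on stiff. Of 5245 genes measured in both, 95 were past 1.5-fold higher and 133 lower on both substrates, and 3 went past it in opposite directions. Without cells of under 1% mitochondrial counts the age counts were 264 and 292 on soft and 143 and 249 on stiff. The aged soft set of 84 cells is the smallest, and the aged stiffness counts rest on it: without cells of under 1% mitochondrial counts 28 genes were higher and 112 lower on stiff, and without the single cell with most of a gene 22 were higher and 19 lower.

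Few genes differed by stiffness in young Car3-high cells. The genes past 1.5-fold higher on stiff were Dupd1, a muscle dual-specificity phosphatase, at 22.9 against 10.4 CPM, Tagln, an SRF-responsive actin binder, at 44.1 against 23 CPM, and B230312C02Rik, an unnamed gene model. Lower on stiff were Spp1, osteopontin, at 206 against 408 CPM, Myf5, at 26.4 against 47.7 CPM, and Islr, at 11 against 21.4 CPM. Mgp, at 28.9 against 108 CPM, rested on 1 cell that held 57.1% of the young soft level. In Car3-low cells the log2 ratios were 0.07 for Tagln and 0.07 for Spp1, against 0.81 and -0.97 in Car3-high cells.

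In aged Car3-high cells Ankrd2, a stretch-responsive ankyrin repeat gene of slow muscle, was at 79.8 CPM on stiff and 39.4 CPM on soft, a summed UMI ratio of 1.65 (1.36 to 2.02). The stress factor Ddit3 was at 27.9 against 12.1 CPM, Mt2, a metallothionein, at 91.5 against 50.6 CPM and Msmo1, a sterol synthesis enzyme, at 33.6 against 17.0 CPM. Hes1, a Notch effector, was at 30.1 against 60.1 CPM, Marcks at 9.96 against 24.6 CPM and Cd24a at 12.8 against 37.9 CPM. Apod and Myh2, with the largest negative ratios, and Cdkn1c, among the largest positive, each came mainly from 1 cell of 1 library: 97.8% and 80.9% of the aged soft levels and 77.4% of the aged stiff level. The slow list had 13 of 16 genes higher on stiff, 2 of them past 1.5-fold and 1 past it lower, beside 2094 of 5305 higher over all genes. Its median was 0.24 against 0.10 in Car3-low cells and rests on the 84 aged soft cells.

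By stiffness the Car3-low cells had few genes past 1.5-fold among those measured, 3 higher and 5 lower in the young and 7 higher and 0 lower in the aged, which limits what can be shared. Shared with the Car3-high cells were 1 higher and 4 lower in the young and 4 higher in the aged. By age the Car3-low cells had 201 higher and 376 lower genes on soft and 161 and 263 on stiff. Of the Car3-high counts, 120 of 241 (49.8%) higher and 175 of 294 (59.5%) lower genes were shared on soft, and 96 of 149 (64.4%) and 155 of 214 (72.4%) on stiff. Car3-high and Car3-low cells of a library share its culture, run and free RNA.

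With age, slow myosin genes were lower in Car3-high cells. Myl2 was at 28.7 against 147 CPM on soft and 14.1 against 138 CPM on stiff, log2 ratios of -2.18 and -2.90 beside -1.61 and -1.67 in Car3-low cells. Under the alternative settings the Myl2 ratio in Car3-high cells went as high as -1.81 on soft and -0.29 on stiff. Myh7 was at 74.6 against 381 CPM and 121 against 323 CPM, with log2 ratios of -2.28 and -1.39 beside -1.72 and -1.28. Sln had ratios of -1.19 and -1.60, and Nrap -1.10 and -0.89. The whole slow list had a median of -0.26 on soft and 0.05 on stiff, since Tpm3 (0.78 and 0.87) and Tnnt1 (0.47 and 0.66) were higher in the aged cells.

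Fast genes were mostly higher in aged Car3-high cells, with 11 of 12 on soft and 9 of 11 on stiff and medians of 0.62 and 0.42, beside 2619 of 5511 and 2434 of 5363 over all genes. Past 1.5-fold were 6 higher and 1 lower on soft and 3 higher and 1 lower on stiff. These counts include Myh2, which is not read because single cells held much of its level. It was among the 6 on soft and was the 1 lower on stiff, at a log2 ratio of -1.66. Atp2a1 was at 1795 against 1036 CPM on soft and 1811 against 999 CPM on stiff, Tnni2 at 1353 against 731 CPM and 1242 against 806 CPM, and Casq1 at 1222 against 715 CPM and 1256 against 841 CPM. The medians in Car3-low cells were 0.63 and 0.61. Ckm was higher too, by log2 ratios of 0.97 and 0.91. Z-disc genes had medians of -0.29 and -0.16, and all 13 measured mitochondrially encoded genes on soft and all 12 on stiff were lower, with medians of -0.32 and -0.26 beside -0.18 and -0.08 in Car3-low cells. The soft value rested on the cells with almost no mitochondrial counts, 20 of the 84 aged soft cells: without cells under 1% it was -0.005, and the stiff value -0.16.

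Among single genes, Gpx3 was at 1496 against 409 CPM on soft and 1335 against 490 CPM on stiff, a summed UMI ratio on soft of 3.49 (3.34 to 3.64). Ifitm3, an interferon-inducible membrane protein, was at 125 against 30.4 CPM and 89.0 against 22.4 CPM. Of the 17 genes of the interferon list, all 6 measured on soft were above 0, 3 past 1.5-fold. On stiff all 5 measured were above 0, 2 past it. Over all genes 2619 of 5511 were above 0 on soft, 241 past 1.5-fold, and 2434 of 5363 on stiff, 149 past it. The list's medians were 0.82 and 0.17, beside 0.61 and 0.39 in Car3-low cells, and under the alternative settings both went as low as 0.11. Thbs1, thrombospondin 1, was at 23.5 against 2.65 CPM and 22.5 against 4.04 CPM. Cmbl, a hydrolase, and R3hdml were higher on soft by 2.19 and 1.79. On stiff Lox, lysyl oxidase, was at 30.6 against 6.92 CPM, Spp1 at 606 against 206 CPM and Mcpt8 at 21.9 against 0.563 CPM. Under the alternative settings the log2 ratios on stiff went as low as 0.12 for Thbs1, 0.74 for Lox, 0.75 for Mcpt8 and 1.48 for Spp1. Lower in aged cells were Fgfbp1, at 0.864 against 27.4 CPM, which is 2 UMIs against 294 and a summed UMI ratio of 0.0222 (0.00268 to 0.0811), and at 4.51 against 30.6 CPM on stiff. Also lower were Top2a, at 2.32 against 33.6 CPM and 3.14 against 22.6 CPM, and on stiff Frem2, at 9.06 against 41.2 CPM, and Srgap1, at 4.12 against 24.9 CPM. Top2a is a mitotic gene and 1 cell held 31.5% of its young soft level. Its log2 ratio on stiff, -1.76, went as high as 0 under the alternative settings. Mgp, also much lower in aged soft, rested on 1 cell for 57.1% of the young soft level. Meg3 was much lower there too, although 1 cell held 89.2% of its level in aged soft, the lower side. Under the alternative settings the log2 ratio on soft ran from -3.82 to -1.67 for Mgp and from -4.12 to -2.22 for Meg3.

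Some age differences were unlike those of the Car3-low cells. The named gene farthest below was Fgf21, a stress-induced hormone of muscle and liver, at 113, 90.3, 88.2 and 145 CPM in Car3-high cells and 78.7, 65.1, 204 and 210 CPM in Car3-low cells. Car3-high cells thus had more Fgf21 than Car3-low cells in both young libraries and less in both aged ones, and the age ratio on the log2 scale was -0.34 on soft and 0.65 on stiff inside against 1.32 and 1.62 outside. Ckmt2, the sarcomeric mitochondrial creatine kinase, was at 30.2, 28.7, 4.16 and 14.3 CPM against 10.9, 13.2, 6.27 and 6.79 CPM. Myl2, Fgfbp1, Mgp and Rgs12 also had a lower age ratio inside.

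On the other side, Ptms was at 88.8, 95.7, 130 and 100 CPM in Car3-high cells and 161, 171, 110 and 114 CPM in Car3-low cells, and Stmn1, a tubulin binder of immature cells, at 41.3, 27.7, 21.1 and 17.5 CPM against 61.4, 72.8, 18.5 and 20.7 CPM. Rrbp1, Cks1b, Spock1 and Serpine2 were alike in having a higher age ratio inside. For Ptms, Stmn1, Rrbp1 and Cks1b the young Car3-high cells were lower than the young Car3-low cells in both libraries, while in the aged libraries the 2 sets were closer. These differences of ratios were not tested, as each rests on single libraries. Aged Car3-high cells also held less Car3, with medians of 8.99 and 9.36 on the log2 scale against 10.2 and 10.1 in the young. Whether the differences go with age or with Car3 level inside the definition was not tested.

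**Figure D5:**
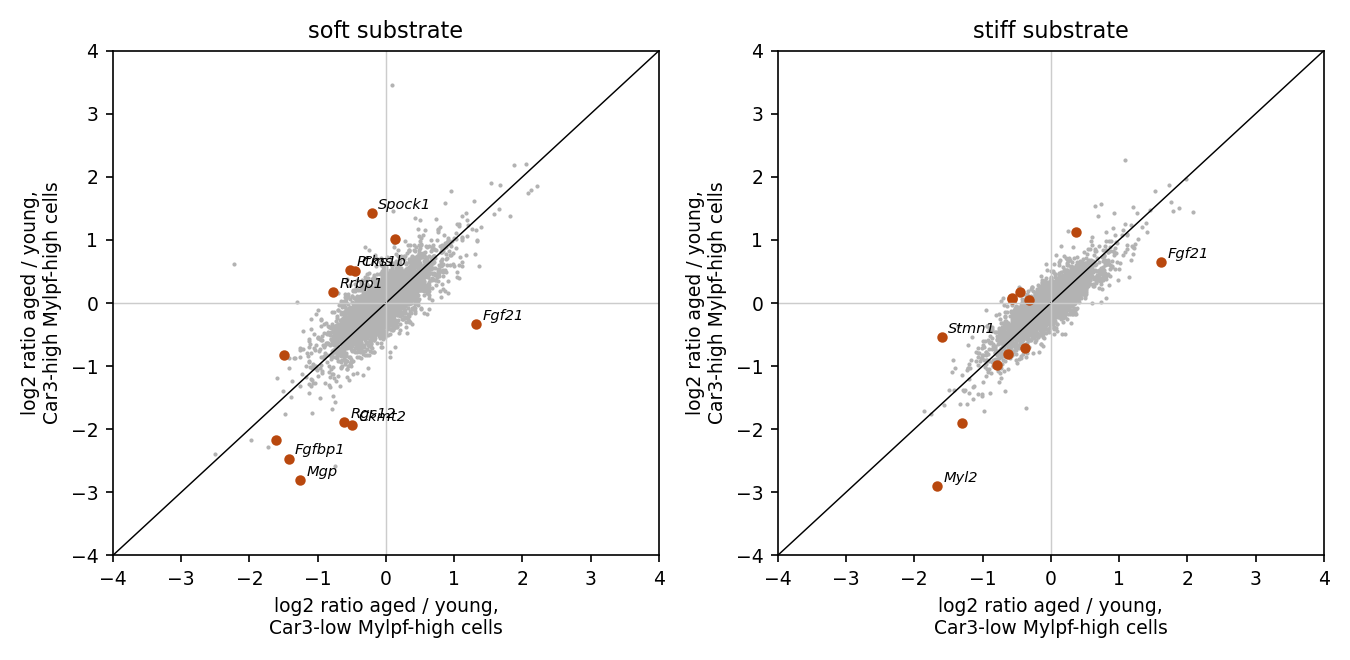
Log2 ratio of mean CPM plus 5, aged over young, in Car3-high (vertical) against Car3-low Mylpf-high cells (horizontal), on soft (left) and stiff (right) substrate; grey points are measured genes, red points the 12 genes named for the largest differences between the ratios, labelled where they differ by over 0.9, and the line marks equality. Fgf21 lies far below the line on both substrates, at -0.34 against 1.32 on soft and 0.65 against 1.62 on stiff.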

How the data were processed

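The 4 deposited tables, 1 per library, held log2(CPM + 1) per cell for 13772 genes, a unit found from the values. Per the submitters' processing notes the tools were Cell Ranger 6.1.2 and Partek, with no role given, and the chemistry (Single Cell 3' v3) per the labels' protocols; genome build, annotation and earlier filters are not given in the sources used here. UMI counts, recovered from the steps between the authors' log2 values, were whole within 0.05 for 99.953% to 99.956% of values; 11 symbols had values between whole counts. A cell needed 500 detected genes and no more than 20% mitochondrial counts, which left out 3. Libraries shared 1 barcode. Doublets were not removed and no caller was run.

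A level is the mean CPM over cells, and ratios are log2 of mean CPM plus a pseudocount of 5, which understates differences of low genes. Genes needed 20 CPM in either set and were called past 1.5-fold. With 1 library per group nothing was tested. Shares have exact (Clopper-Pearson) 95% intervals and ratios of summed UMIs exact conditional binomial ones, for counting error only. Shares of cells with a UMI used cells thinned to 2000 UMIs. The cells and the 30 gene lists were chosen with earlier results of these data known. Named genes were the 12 largest and 12 smallest medians over libraries among genes of 1 sign in all 4, the 6 largest and 6 smallest of each comparison between libraries and of the difference in age ratio, all slow, fast and carbonic anhydrase list members, up to 4 leading members of other lists, and a fixed set (Car3, Mylpf, Myl2, Myh7, Sln, Nrap, Ckm, Myog, Myod1, Pax7, Mymx, Mymk, Cdkn1c, Mki67, Ankrd1, Fabp4, Adipoq, Cyr61 and Ctgf); unnamed gene models were left out. Results for 1 gene chosen this way are left out here. Others named (Actb, Actg1, Ckb, Myl9, Smyd2, Fbxo40, Kif1c, Ndrg4, Lyrm9, B230312C02Rik, 2900079G21Rik, Gm14216 and marker genes) were chosen after their values were seen. Start regions came from RefSeq tables of build GRCm38.p6. The ratio code was tested on simulated data. Python 3.11.15, numpy 2.4.6, pandas 2.3.3 and scipy 1.17.1 were used.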

Additional observations from a re-analysis of the deposited data

How the results depend on the processing

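No paired analysis was possible because each group is 1 library. The shares of Car3-high Mylpf-high cells depended on the Car3 minimum: with a minimum of 7 they were 22.6%, 23.5%, 10.7% and 13.5% of all cells and 44.1%, 44.6%, 14.8% and 17.0% of Mylpf-high cells, and with a minimum of 9 they were 15.4%, 15.9%, 3.15% and 5.64% and 29.9%, 30.2%, 4.34% and 7.12%, always higher in the young libraries. Young stiff was at 22.8% of all cells among cells with 20000 UMIs or more. Counts of genes past 1.5-fold depended on the level required. Higher genes in Car3-high cells in all libraries numbered 29 with a pseudocount of 1, 10 with at least 100 CPM and 8 with equal Mylpf; lower genes numbered 15 with summed UMIs, 12 with at least 100 CPM, 37 with a Car3 minimum of 9, 15 with a Mylpf minimum of 12 and 41 without the top cell, an alternative added after seeing the data. Leaving out each library in turn gave 18 to 29 higher and 26 to 45 lower genes, over 3 libraries and so under a looser demand.

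Between libraries, the higher and lower counts with at least 100 CPM were 0 and 5 for young stiffness, 6 and 1 for aged stiffness, 59 and 86 for age on soft and 42 and 70 for age on stiff. With no minimum level they were 12 and 44, 71 and 140, 454 and 536, and 282 and 351. In the 78 cells with Ckm of at least 8, from 9 to 26 per library, they were 301 and 826, 479 and 968, 876 and 1238, and 518 and 822. A pseudocount of 1 gave 5 higher and 25 lower for young stiffness and 68 lower for aged stiffness. A Car3 minimum of 9 gave 23 lower for young stiffness, 64 higher and 297 lower for aged stiffness and 349 lower for age on stiff, and a minimum of 7 gave 11 higher and 12 lower for aged stiffness. Lower genes for aged stiffness were 112 without cells of under 1% mitochondrial counts and 19 without the top cell.

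The sign turned for 6 of the values of named genes that were past 1.5-fold. Cdkn1c in aged stiff against soft became -0.57 with a Car3 minimum of 9, -0.58 with a Mylpf minimum of 12 and -2.00 with Ckm of at least 8. With that Ckm minimum Aldh1a2 became 0.52 and Cd24a 0.32 in the same comparison, and Myh2 in young stiff against soft 3.13. The cause was not tested. Of the other values of named genes and lists, 3040 stayed within the limit set for them, of which 116 near 0 changed sign, with a main value of at most 0.25 in size; 359 moved beyond the limit, 51 of them with a change of sign.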
